A study of Zea mays with 4 samples.

Results

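OCL1 (Zm00001d040090), OCL5A (Zm00001d049443), HB91 (Zm00001d026351), HB45 (Zm00001d028304) and HB118 (Zm00001d043231) are maize genes for homeodomain transcription factors, which the tables of the study place in the HD-ZIP family. They were selected by gene identifier, 5 of 45953 features in the deposited tables, and each had UMIs in every library. Their transcripts were followed in single endosperm cells, ranked by 3 marker genes of endosperm cell types, and compared between 2 ages of the kernel. Kernels were wild type and of the inbred line B73, the reference line of maize genetics. Their endosperm, pooled from many kernels, was digested to protoplasts, cells without their walls, and captured in droplets with a 3′ kit that tags each transcript molecule with a unique molecular identifier (UMI). There was 1 library from 6 days after pollination (DAP) and 3 libraries from 7 DAP, which the labels call replicates. The study reports them as biological replicates, and nothing in the labels says that they came from separate plants. The p-values therefore measure how differences between groups of cells vary over these 3 libraries, with information on the variance shared over genes.

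The homeodomain is a DNA-binding fold, and in HD-ZIP proteins it is followed by a leucine zipper through which the proteins pair. Class IV of this plant family, to which the OCL (outer cell layer) genes of maize belong, is known for its activity in epidermis and other outer cell layers, and its members bind the L1 box in the promoters of such genes. The endosperm, the nutritive tissue of the kernel, has an outer layer of its own, the aleurone. Starchy endosperm fills the interior, and the basal endosperm transfer layer (BETL) takes up sugars and amino acids from the mother plant.

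DNA-binding motifs of the 5 factors were listed by the study from ampDAP-seq, an assay in which a purified factor pulls down fragments of amplified genomic DNA outside the cell. They are shown here because all members but HB45 share a run of bases in them. The shared run of bases is in capitals, and the OCL1 motif is written as the reverse complement of the listed one so that this run reads in 1 direction.

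OCL1: agCATTTAAatc

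HB118: agCATTTAAtt

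HB45: aatgattg

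The motifs of OCL5A and HB91 include letters that stand for alternative bases and are named only, and both hold CATTTAA too. HB45 was the only 1 of the 5 without it, on either strand. These are letters of a motif, and no binding site in the genome was examined.

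Cells were kept with 500 to 7500 genes and at least 1000 UMIs, which left 3141 cells at 6 DAP and 4815, 4871 and 4385 cells at 7 DAP. The median cell had 1814 UMIs at 6 DAP and 3979 to 5659 at 7 DAP, so that the 6 DAP library was the shallower. The share of deposited barcodes kept was 67.9% at 6 DAP and 82.3% to 83.1% at 7 DAP. Pairs of libraries shared 4 to 8 barcode sequences. Levels are given as CPM, the UMIs of a gene per 1000000 UMIs of the cells summed, and they are compared between cells for 1 gene, never between genes. Reads of near-identical gene copies were not examined, which leaves OCL5A, a gene of a duplicated pair by its name, uncertain in that respect.

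To place the members among cell types, cells were ranked within each library by the share of their UMIs that came from AL9, FL3 or BETL9, markers that the study used for aleurone, starchy endosperm and BETL. AL9-high cells were the top 20% by AL9, and FL3-high and BETL9-high cells were the top 10% by FL3 or BETL9. Cells in more than 1 of these sets were left out, and all others are called remaining cells. No member took part in the ranking. The other markers of each type, without the ranking gene, were summed as a check. At 7 DAP the other 6 BETL markers lay at 107405 to 116657 CPM in BETL9-high cells and at 2693 to 8916 CPM elsewhere, and the other 4 starchy endosperm markers at 1629 to 1788 CPM in FL3-high cells and 69.7 to 376 CPM elsewhere. The other 3 aleurone markers, of which 2 had UMIs, lay at 1085 to 1124 CPM in AL9-high cells and at 73.9 to 521 CPM elsewhere, highest in remaining cells. A nucellus marker stayed at or under 7.2 CPM in every class. At 7 DAP 2 markers of the endosperm adjacent to the scutellum summed to 17.9 to 39.8 CPM in FL3-high cells and to at most 9.20 CPM elsewhere. The 5 markers of the embryo-surrounding region summed to 434 to 1695 CPM in FL3-high and 2515 to 3045 CPM in remaining cells. Their part in the results was not tested. FL3-high cells also had the highest level of a mitochondrial RNA (1807 to 1858 CPM at 7 DAP, 184 to 818 CPM in the other classes), and the part of this in the results was not tested. AL9 gave UMIs in 97.0% to 97.5% of cells at 7 DAP, so a few UMIs of it do not mark a cell.

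OCL1 was highest in AL9-high and remaining cells and was lower in BETL9-high and FL3-high cells. OCL1 is known as an epidermal regulator of maize, active in the outer layer of embryo and endosperm. In AL9-high cells it lay at 92.3, 91.0 and 91.1 CPM in replicates 1, 2 and 3 of 7 DAP, and in remaining cells at 90.8, 91.0 and 93.8 CPM. BETL9-high cells held 38.3, 38.6 and 34.5 CPM, and FL3-high cells 25.4, 21.9 and 26.3 CPM. At 7 DAP the first 2 classes overlapped between libraries, and the other 2 lay apart from them and from each other. In the 1 library of 6 DAP, OCL1 lay at 108 CPM in AL9-high cells (95% Poisson interval 91.3 to 127). Remaining cells of that library held 73.2 CPM (65.5 to 81.6), and these intervals, which cover counting error only, do not overlap. A fit across all genes compared the classes of 7 DAP with library as a block (edgeR's quasi-likelihood test with Benjamini-Hochberg adjustment over 17207 genes). A gene is called there at an adjusted p under 0.05 and a change of at least 2-fold. OCL1 was higher in AL9-high than in BETL9-high cells by 1.11 ± 0.08 (SE) on the log2 scale (adjusted p = 1.54e-21) and higher than in FL3-high cells by 2.55 ± 0.11 (adjusted p = 1.24e-35). FL3-high cells were also lower than BETL9-high cells by this test, with a log2 difference of -1.44 ± 0.13 (adjusted p = 3.45e-16). The fit rescales each sum (factors of 0.707 to 1.34), so its folds are not ratios of the CPM values. It held no contrast of AL9-high with remaining cells. Their factors were 0.826 to 0.897 and 1.16 to 1.23, so at equal CPM the scaled level is the higher in AL9-high cells.

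OCL1 did not follow AL9 in size. In BETL9-high cells of 7 DAP, OCL1 stood at 37.9% to 42.4% of its level in AL9-high cells, while AL9 stood at 5.09% to 6.00% and VPP7, another aleurone marker, at 3.15% to 6.41%. At 6 DAP these values were 36.8% for OCL1, 2.50% for AL9 and 5.11% for VPP7. In FL3-high cells of 7 DAP, OCL1 stood at 24.1% to 28.9%, VPP7 at 21.2% to 23.2% and AL9 at 3.19% to 4.99%, so the markers themselves differed there. The part of free RNA in these levels was not tested. Of the OCL1 UMIs in the 4 classes, 68.1% to 69.1% came from remaining cells at 7 DAP and 23.8% to 24.7% from AL9-high cells.

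OCL5A, a second OCL gene, was rare everywhere, with 61 to 82 UMIs in a library of 7 DAP and 10 at 6 DAP. Its AL9-high cells held 14, 24 and 23 UMIs in the 3 libraries of 7 DAP (2.54, 3.23 and 3.31 CPM), and its remaining cells held 2.98, 2.54 and 2.67 CPM. FL3-high cells gave 0, 1 and 1 UMIs, and BETL9-high cells 0, 2 and 1. In CPM, AL9-high and remaining cells overlapped, as did FL3-high and BETL9-high cells, and the 2 pairs lay apart. Pooled over 7 DAP, the level in AL9-high cells was 8.16 times that in FL3-high cells (95% counting interval 2.16 to 68.9) and 11.7 times that in BETL9-high cells (3.81 to 58.1). Both contrasts passed the edgeR test (adjusted p = 5.26e-06 and 2.60e-06), while FL3-high and BETL9-high cells were not told apart (log2 difference -0.31 ± 1.28, adjusted p = 0.853). At 6 DAP the 5 UMIs in AL9-high cells gave 3.76 CPM. The 0 UMIs in FL3-high and BETL9-high cells have exact 95% Poisson upper limits of 5.58 and 5.88 CPM, so no difference was detectable at that depth.

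HB91, a further HD-ZIP gene, shared the AL9-high side. At 7 DAP it lay at 40.8, 29.3 and 33.4 CPM in AL9-high cells and at 29.4, 26.5 and 29.4 CPM in remaining cells. FL3-high cells gave 5.92, 1.53 and 2.39 CPM from 10, 3 and 4 UMIs, and BETL9-high cells 2.55, 4.86 and 0.659 CPM from 7, 20 and 3 UMIs. AL9-high and remaining cells again overlapped between libraries of 7 DAP, and both lay above every library of the other classes. In the 1 library of 6 DAP, HB91 lay at 72.2 CPM in AL9-high cells (95% Poisson interval 58.4 to 88.1). Remaining cells of that library held 32.3 CPM (27.3 to 38.1), and these intervals, which cover counting error only, do not overlap. By the edgeR test HB91 was higher in AL9-high cells than in BETL9-high cells by 3.48 ± 0.26 on the log2 scale (adjusted p = 1.67e-10) and than in FL3-high cells by 4.05 ± 0.31 (adjusted p = 2.11e-10). Between FL3-high and BETL9-high cells the log2 difference was -0.57 ± 0.60 (adjusted p = 0.439), and without replicate 2 it was 0.73, on the other side of 0 (adjusted p = 0.328). Its level in BETL9-high cells was 1.97% to 16.6% of that in AL9-high cells at 7 DAP, a range that includes AL9 itself.

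HB45 had the flattest distribution of the 5 and was the only member with its highest level in FL3-high cells at 7 DAP. It lay there at 14.8, 18.9 and 17.9 CPM, against 12.7, 11.5 and 11.8 CPM in remaining cells. BETL9-high cells held 5.10, 8.01 and 4.83 CPM and AL9-high cells 6.53, 5.92 and 4.89 CPM. FL3-high cells were above every other class in all 3 libraries, remaining cells came next, and AL9-high and BETL9-high cells overlapped. AL9-high cells were lower than FL3-high cells by a log2 difference of -0.94 ± 0.21 (edgeR, adjusted p = 8.50e-05), which is under the 2-fold limit. Without replicate 1 the difference was -1.05 and passed that limit (adjusted p = 0.000259). FL3-high cells exceeded BETL9-high cells by 0.67 ± 0.23 (adjusted p = 0.0113), also under 2-fold, and AL9-high and BETL9-high cells were not told apart (-0.28 ± 0.23, adjusted p = 0.304). At 6 DAP remaining cells (17.3 CPM) stood above FL3-high cells (15.1 CPM from 10 UMIs), and their 95% Poisson intervals of 13.6 to 21.6 and 7.25 to 27.8 CPM overlap.

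HB118 was the member of the BETL side. In BETL9-high cells it lay at 160, 130 and 144 CPM in the 3 libraries of 7 DAP and at 242 CPM at 6 DAP. Remaining cells held 12.8, 10.5 and 12.9 CPM, AL9-high cells 4.53, 4.71 and 4.17 CPM, and FL3-high cells 2.37, 2.04 and 0.597 CPM from 4, 4 and 1 UMIs. All 4 classes lay apart from each other at 7 DAP, in that order. Of the HB118 UMIs in the 4 classes, without the left-out cells, BETL9-high cells held 65.9% to 70.3% at 7 DAP and 56.1% at 6 DAP. They were 379 to 397 of the 4385 to 4871 cells kept in a library of 7 DAP. By the edgeR test AL9-high cells were lower than BETL9-high cells by a log2 difference of -5.19 ± 0.11 (adjusted p = 1.79e-56) and FL3-high cells by -7.23 ± 0.18 (adjusted p = 1.60e-50). The step between the 2 low classes, AL9-high over FL3-high by 2.04 ± 0.41 (adjusted p = 1.35e-05), did not hold with smaller classes (1.07, adjusted p = 0.0928) or with every cell thinned to 1000 UMIs (1.68, adjusted p = 0.154).

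HB118 was seen in 46.4%, 47.6% and 60.6% of BETL9-high cells at 7 DAP, with class medians of 6401, 9299 and 11047 UMIs per cell. In AL9-high cells, at medians of 4981, 6495 and 6731.5 UMIs, the share was 1.49%, 2.49% and 1.501%. BETL9-high cells were the deeper ones. When cells were divided by depth into 4 equal groups, HB118 lay at 32.7 to 42.4 CPM in the deepest group of each 7 DAP library and at 9.21 to 14.98 CPM in the other groups. The log2 difference of AL9-high from BETL9-high cells was -5.33 with every cell thinned to 1000 UMIs and -5.09 without the 5% deepest cells (edgeR, adjusted p = 1.83e-44 and 6.95e-61), beside -5.19 with all kept cells at full depth. HB118 in AL9-high cells stood at 2.84% to 3.62% of its level in BETL9-high cells, beside 1.17% to 2.24% for BETL10 and 1.26% to 1.48% for MRP1, the MYB-related activator of BETL genes. HB118 was above both in each library, on 25 to 35 UMIs. A single cell held up to 22 UMIs of HB118, and a cell with any held 2.14 to 2.48 on average at 7 DAP. The plot of levels by class shows the 5 distributions side by side.

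**Figure D1:**
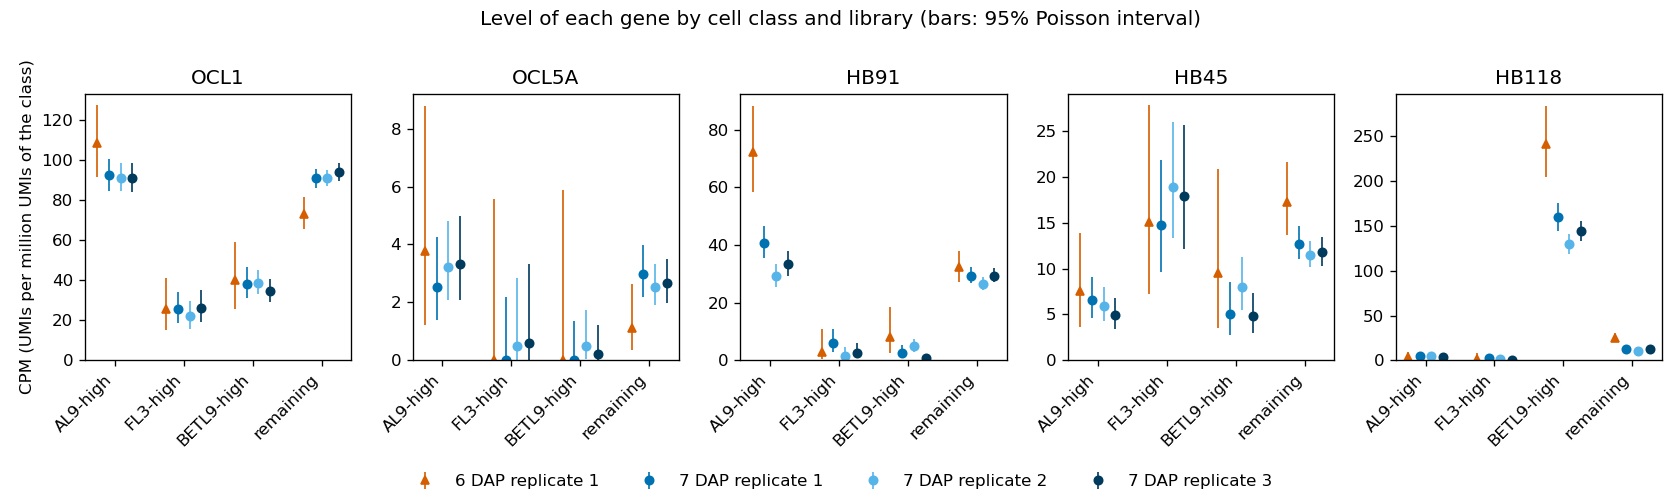
Level of each gene in CPM (vertical axis, separate scale for each gene) in AL9-high, FL3-high, BETL9-high and remaining cells, with 1 point per library and bars for the exact 95% Poisson interval, which covers counting error only. OCL1, OCL5A and HB91 stand higher in AL9-high and remaining cells at 7 DAP, HB45 in FL3-high cells, and HB118 in BETL9-high cells, at 130 to 160 CPM at 7 DAP and 242 CPM at 6 DAP.

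Counted over the members, 4 of 5 were called between AL9-high and BETL9-high cells, OCL1, OCL5A and HB91 higher in AL9-high cells and HB118 lower. Over all genes tested, 23.5% were called in that comparison, 12.7% higher and 10.8% lower. Between AL9-high and FL3-high cells 4 members were called, all higher in AL9-high cells (25.3% of all genes called, 13.0% higher and 12.3% lower). Between FL3-high and BETL9-high cells 2 were called, OCL1 and HB118, both lower in FL3-high cells (28.0% of all genes called, 14.7% higher and 13.2% lower). HB45 was called in none of the 3, and all 5 passed the filter on low counts. The members were chosen with earlier results of these data known. Their counts are therefore a description and cannot be weighed against the shares over all genes.

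Along the full ranking the levels of the members differed from bin to bin, also outside the top classes. Cells with no UMI of a marker formed bin 0, and the others formed 5 equal bins by rising share of the marker. OCL1 lay at 19.2 to 25.1 CPM in the 7 DAP cells with no AL9 UMI, at 64.6 to 75.5 CPM in bin 2 and at 101.5 to 105.4 CPM in bin 4. In bin 5 it was back at 90.6 to 91.3 CPM in the 3 libraries. AL9 itself took 12.9% to 14.05% of the UMIs in bin 5 and 5.02% to 5.11% in bin 4. With AL9 left out of the total, OCL1 was at 104 to 106 CPM in bin 5 and 107 to 111 CPM in bin 4, a smaller step than with it. At 6 DAP the order was 34.8, 43.4, 49.6, 102, 117 and 102 CPM from bin 0 to bin 5.

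HB91 and OCL5A went with AL9 from a lower start. HB91 lay at 0 to 9.67 CPM in cells without AL9, in bins of only 122 to 139 cells at 7 DAP, at 35.2 to 45.1 CPM in bin 4 and at 29.2 to 39.9 CPM in bin 5, below bin 4 in each of the 3 libraries. At 6 DAP it was 2.13 CPM in bin 0, 13.3 CPM in bin 2, 51.2 CPM in bin 3 and 80.8 CPM in bin 5, the highest HB91 level in any AL9 bin of the 4 libraries. OCL5A had no UMI in bin 0 of any library and lay at 3.53 to 4.76 CPM in bin 4 and 2.73 to 3.28 CPM in bin 5 at 7 DAP. HB45 lay at 9.56 to 15.5 CPM over bins 0 to 3 at 7 DAP, with no steady order, and was lower only in bin 4 (7.04 to 7.67 CPM) and bin 5 (5.05 to 6.74 CPM).

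Ranked by FL3, 4 of the 5 members were lower at the top. OCL1 lay at 88.6 to 89.1 CPM in 7 DAP cells with no FL3 UMI and at 13.8 to 24.6 CPM in bin 5, and HB118 at 25.8 to 32.5 CPM and at 1.17 to 6.05 CPM. HB45 went the other way, from 8.80 to 9.78 CPM in bin 0 to 14.5 to 18.8 CPM in bin 5. At 6 DAP HB45 was at 21.1 CPM in bin 3 and at 9.36 CPM in bin 5, so its order along FL3 was not the same at that age. Ranked by BETL9, HB118 lay at 4.51 to 5.63 CPM in bin 0, 42.2 to 73.6 CPM in bin 1 and 172 to 174 CPM in bin 4 at 7 DAP. It stood at 127 to 157 CPM in bin 5, below bin 4 in all 4 libraries.

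**Figure D2:**
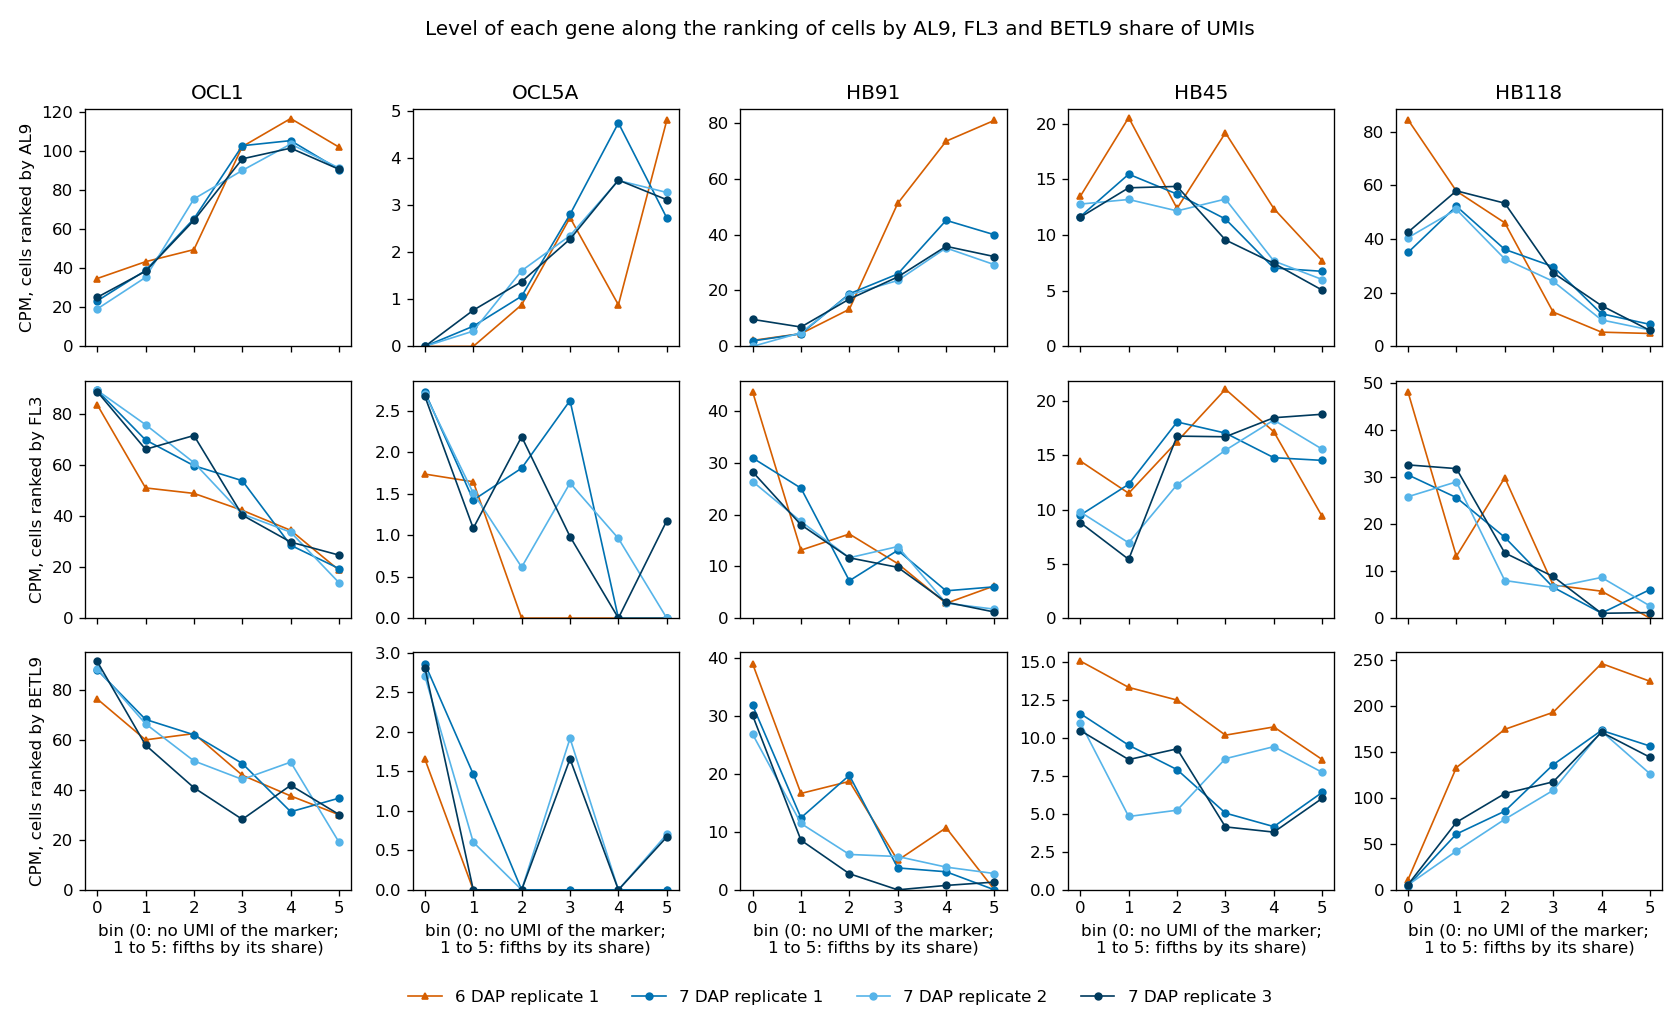
Level of each gene in CPM (vertical axis) in bins of cells ranked by AL9, FL3 or BETL9 share of UMIs (horizontal axis, bin 0 without a UMI of the marker, then 5 equal bins by rising share), with 1 line per library. OCL1, OCL5A and HB91 stand higher towards the AL9 end and HB118 towards the BETL9 end, where it reached 172 to 174 CPM in bin 4 at 7 DAP.

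Within single cells, the members were seen together in a minority of cells. At 7 DAP 50.6% to 58.0% of cells had a UMI of no member, 9.51% to 12.6% had 2 members, and 0, 3, 4 and 2 cells of the libraries of 6 DAP and 7 DAP had 4. No cell had all 5. OCL1 was seen in 14.04% of cells at 6 DAP and in 28.9%, 36.2% and 35.3% at 7 DAP. With every cell thinned to 1000 UMIs the shares were 6.88% at 6 DAP and 7.62%, 8.13% and 7.84% at 7 DAP, a smaller gap between the ages than at full depth.

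OCL1 and HB91 were the pair with the most shared cells, 62 at 6 DAP and 277, 381 and 386 at 7 DAP. HB91 was seen in 14.1% of cells with OCL1 and 5.37% of cells without it at 6 DAP. The ratio of these shares was 2.62 at 6 DAP and 2.61, 2.83 and 3.43 at 7 DAP. Deep cells show more of every gene, and in thinned cells the ratios were 2.55, 1.95, 1.78 and 1.45 from 12 to 19 shared cells. Among AL9-high cells alone, HB91 was seen in 17.3% of cells with OCL1 and 12.3% without at 6 DAP. At 7 DAP these shares were 25.1% and 14.1%, 23.4% and 14.04%, and 29.9% and 12.4%. The order was the same in each of the 4 libraries, before and after thinning and inside the class, but the thinned ratio of 7 DAP replicate 3 had a 95% interval of 0.806 to 2.62, which includes 1.

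HB118 was seen in a smaller share of cells with HB91 than of cells without it. The ratios were 0.362 at 6 DAP and 0.416, 0.399 and 0.318 at 7 DAP from 5 to 20 shared cells. Only 1 or 2 shared cells per library were left after thinning. OCL1 and HB118 gave no common order over all cells, with ratios of 0.752, 1.20, 1.17 and 0.843. Inside BETL9-high cells, HB118 was seen in 64.2%, 66.4% and 69.1% of cells with OCL1 and 41.6%, 40.1% and 57.2% of cells without it at 7 DAP. At 6 DAP the shares were 37.5% and 42.5%, in the other order, and depth within the class was not matched.

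**Figure D3:**
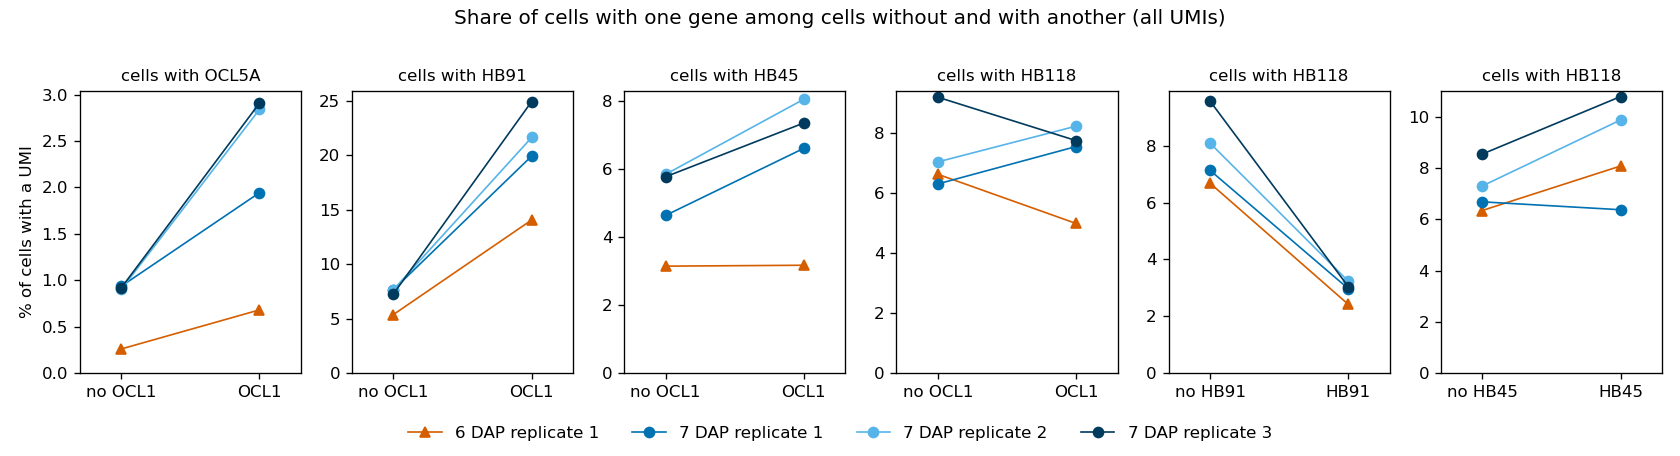
Share of cells with a UMI of one gene (vertical axis, percent) among cells without and with a UMI of another (horizontal axis), with 1 line per library and all UMIs used. The share with HB91 is higher among cells with OCL1 in all 4 libraries, by ratios of 2.61 to 3.43, and the share with HB118 is lower among cells with HB91.

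Between ages there was 1 library at 6 DAP, so no test was run, and the 6 DAP level with its exact 95% Poisson interval is set beside the 3 libraries of 7 DAP. Over all kept cells OCL1 lay at 71.9 CPM (65.8 to 78.4) at 6 DAP and at 80.6, 80.8 and 81.0 CPM at 7 DAP. HB91 lay at 34.7 CPM (30.5 to 39.3) against 27.2, 23.1 and 24.7 CPM, and HB45 at 14.5 CPM (11.8 to 17.5) against 10.7, 10.3 and 9.65 CPM. HB118 lay at 38.2 CPM (33.8 to 43.0) against 26.9, 23.3 and 29.2 CPM. The OCL1 interval lay below all 3 libraries of 7 DAP and the other 3 above them, while OCL5A, at 1.40 CPM from 10 UMIs (0.674 to 2.58), reached its 7 DAP levels of 2.39, 2.32 and 2.34 CPM. In such sums, fewer cells of a type and less RNA per cell cannot be told apart.

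The sizes of these gaps were modest. A gene was counted as past the fold at 1.5 times the highest 7 DAP library, or under the lowest divided by 1.5. Of the 5 members only OCL5A was past it over all kept cells, lower at 6 DAP, where 7.64% of 18140 genes were lower and 9.02% higher. The ratios of 6 DAP to the 7 DAP mean were 0.890 for OCL1, 0.598 for OCL5A, 1.39 for HB91, 1.42 for HB45 and 1.44 for HB118, beside a median of 1.08 over all genes.

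Within classes, HB91 and HB118 were past the fold at 6 DAP, each in the class where its level was highest. In AL9-high cells HB91 lay at 72.2 CPM (58.4 to 88.1) at 6 DAP and at 40.8, 29.3 and 33.4 CPM at 7 DAP, which is 2.09 times the mean and 1.77 times the highest library. Over all genes of that class 23.9% were past the fold and higher at 6 DAP and 10.4% lower, and the median ratio was 1.25. AL9 itself lay at 36779.9 CPM in this class at 6 DAP and at 126677 to 138863 CPM at 7 DAP. With the 27 marker genes left out of the totals, an alternative chosen after seeing the data, the HB91 ratio was 1.87. OCL1 had a ratio of 1.18 in the same cells, and its interval (91.3 to 127) reached the 7 DAP levels.

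In BETL9-high cells HB118 lay at 242 CPM (205 to 284) at 6 DAP, 1.67 times the 7 DAP mean and 1.52 times the highest library, where 20.8% of genes were higher at 6 DAP and 14.4% lower, with a median ratio of 1.18. With the marker genes left out the ratio to the mean was 1.62, and it was no longer past the fold. BETL10 lay at 2918 CPM at 6 DAP and at 2810 to 3120 CPM at 7 DAP in these cells, and MRP1 at 242 CPM and at 233 to 256 CPM. Both BETL genes were within their 7 DAP range. The summed level of all 7 BETL markers was 92456 CPM at 6 DAP, below the 109613 to 119103 CPM at 7 DAP, and the part of these shifts in the result was not tested. HB91 was also past the fold there, on 5 UMIs with an interval (2.59 to 18.6 CPM) that reached the 7 DAP levels. Its ratio was 2.96 with all 3 libraries of 7 DAP and 2.15 to 4.96 with 1 of them left out, the highest without replicate 2. HB45 joined the genes past the fold there only without replicate 2.

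In remaining cells HB118 was at 25.4 CPM (20.9 to 30.5) at 6 DAP and at 12.8, 10.5 and 12.9 CPM at 7 DAP, a ratio of 2.10, where 7.18% of genes were past the fold and higher. The make-up of this unsorted class differed between the ages too: its 4 aleurone markers summed to 5545 CPM at 6 DAP and 23821 to 26396 CPM at 7 DAP, and 5 markers of the embryo-surrounding region to 295 CPM and 2515 to 3045 CPM. Their part in the results of this class was not tested. OCL1 lay at 73.2 CPM (65.5 to 81.6) in these cells against 90.8 to 93.8 CPM, a ratio of 0.797 that was not past the fold. OCL5A was past it on the low side, with 5 UMIs and an interval that reached 7 DAP, where 10.3% of genes were lower. No member was past the fold in FL3-high cells, where 8.01% of genes were higher and 17.6% lower.

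**Figure D4:**
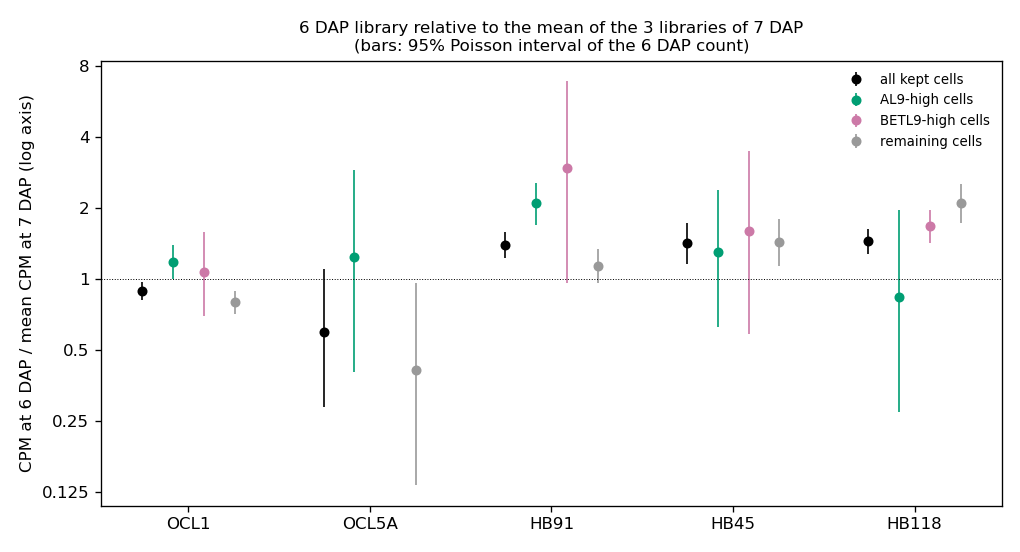
Ratio of the 6 DAP level to the mean of the 3 libraries of 7 DAP (vertical axis, log scale) for each gene over all kept cells and in AL9-high, BETL9-high and remaining cells, with bars for the 95% Poisson interval of the 6 DAP count alone and OCL5A in BETL9-high cells left out at 0 UMIs. HB91 stands at 2.09 in AL9-high cells and HB118 at 1.67 in BETL9-high and 2.10 in remaining cells, while OCL1 stays between 0.797 and 1.18.

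Other homeobox genes were called in both directions between the same classes. Of 18 that the tables of the study name, some of them picked by the study on these libraries, 13 were tested and 9 were called in at least 1 comparison. The share of all genes called in at least 1 comparison was not counted. Between AL9-high and BETL9-high cells 4 were higher and 2 lower (median log2 difference 0.27, and 0.00 over all genes), between AL9-high and FL3-high cells 6 and 1 (0.54 and -0.02), and between FL3-high and BETL9-high cells 1 and 5 (-0.56 and 0.03). Of the 114 features other than the members that the files name as homeobox genes, these 18 among them, 47 were tested, with 7 and 7, 10 and 11, and 8 and 8 called higher and lower in the 3 comparisons. Their medians were -0.24, -0.12 and -0.06, so the sign of the first 2 is the other way from the list of 18. Over all genes tested, 12.7% and 10.8%, 13.0% and 12.3%, and 14.7% and 13.2% were called higher and lower in the 3 comparisons. OCL4, another OCL gene, lay at 141, 129 and 123.5 CPM in AL9-high cells at 7 DAP and at 85.3, 76.7 and 73.8 CPM in BETL9-high cells. It was higher in AL9-high than in FL3-high cells by 3.63 ± 0.11 on the log2 scale (edgeR, adjusted p = 4.03e-44), as was HB75 by 4.55 ± 0.23 (adjusted p = 2.55e-30).

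HB96 and HB49 stood beside HB118 on the BETL9 side. HB96 lay at 57.2, 45.7 and 48.6 CPM in BETL9-high cells at 7 DAP and was lower in FL3-high cells, with a log2 difference of -5.08 ± 0.22 (edgeR, adjusted p = 1.26e-34). HB49 had 91 UMIs in BETL9-high cells at 7 DAP and 2 in AL9-high cells, a ratio of levels of 79.3 (95% counting interval 21.3 to 665). At 6 DAP HB96 was at 105 CPM in BETL9-high cells and HB75 at 107.5 CPM in AL9-high cells, where its 7 DAP libraries held 41.7, 34.3 and 35.3 CPM. OCL4 held 138 CPM in AL9-high cells at 6 DAP, within its 7 DAP range.

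The genes most like each member over the 12 sums of 7 DAP (4 classes in 3 libraries) were found by Pearson's r of log2(CPM + 1). The search covered 1599 genes with a symbol and a mean of at least 10 CPM, of 9628 tested genes at that level. Genes without a symbol were not compared. The sums share libraries, total counts and classes, and the values are a description. OCL1 was closest to VP1 (0.993), the VIVIPAROUS1 transcription factor of seed maturation, and EPR4 (0.992). HB91 was closest to 2G158479 (0.973) and PMEI47 (0.972), OCL5A to pco092896 (0.986) and cl23538_1a (0.969), and HB45 to GATA11 (0.984) and FLZ29 (0.983). HB118 was closest to BETL10 and BETL3 (0.996 each). VP1 lay at 28.6, 26.0 and 31.9 CPM in AL9-high cells and at 3.55, 2.55 and 4.18 CPM in FL3-high cells. At 6 DAP VP1 was at 20.3 CPM in AL9-high and 17.5 CPM in BETL9-high cells, where OCL1 was at 108 and 39.8 CPM. Among the members themselves, OCL1, OCL5A and HB91 had r of 0.90 to 0.92 with each other, and HB45 and HB118 had r of -0.58.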

How the data were processed

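Cell Ranger 4.0 was run by the authors, and the deposited matrices hold its UMI counts, raw and not normalised. Seurat is also named in the submitters' processing notes. The members and gene lists were chosen with earlier results of these data known. Groups and replicate numbers came from the sample titles. Kept cells also had a log of genes over a log of UMIs of at least 0.8, a reading of the printed filter of the study. A class cell needed at least 2 UMIs of its marker. UMIs were summed per library and class and fitted with edgeR 4.0.16 in R 4.3.3 (TMM scaling, filterByExpr, robust quasi-likelihood fit), with library as a block because the classes were cut from the same libraries. DESeq2 1.42.0 was an alternative. The fit was tested on simulated data. Levels, bins and thinning used Python 3.11.15 with numpy 2.4.6, pandas 2.3.3 and scipy 1.17.1. In the age comparison, genes needed a mean of at least 1 CPM over the 4 libraries. Named genes were the members, the markers, the 4 homeobox genes with the largest called changes and the 2 genes most like each member. Doublets were not called, and an alternative left out the 5% deepest cells. Totals over all barcodes were 8248575 UMIs at 6 DAP and 26756925 to 36740377 at 7 DAP. Kept cells held 7117959 UMIs at 6 DAP and 25574646 to 35365891 at 7 DAP. Over kept cells a floor of 3 UMIs is 0.421 CPM at 6 DAP and 0.0848 to 0.117 CPM at 7 DAP. Floors, exact Poisson and exact binomial intervals cover counting error only.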

Additional observations from a re-analysis of the deposited data

Results flagged for a closer look

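Signal of the members appeared in barcodes and cells left out of the main comparison of classes. The left-out cells stayed in the sums over all kept cells, and the barcodes entered only the alternative with all deposited barcodes. The 4442 barcodes outside the cell filter, over the 4 libraries together, held OCL1 at 63.8 CPM, OCL5A at 2.20 CPM, HB91 at 18.8 CPM, HB45 at 9.59 CPM and HB118 at 14.8 CPM, where a count of 0 would allow up to 0.5996 CPM. The 108 cells that stood in more than 1 top set held OCL1 at 26.8 CPM, HB45 at 6.31 CPM from 4 UMIs and HB118 at 93.1 CPM, against a limit of 4.74 CPM. HB118 in these cells was between its levels in AL9-high and BETL9-high cells.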

How the results depend on the processing

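Of 219 alternative values for the 15 log2 differences of the members, 213 kept their direction and their side of the threshold. With every cell thinned to 1000 UMIs, 2 members were called between AL9-high and FL3-high cells, and over all genes 2186 were called there, 1724 between AL9-high and BETL9-high cells and 1918 between FL3-high and BETL9-high cells. HB118 between AL9-high and FL3-high cells was then 1.68 and HB45 between AL9-high and BETL9-high cells 0.82, on the other side of 0. With smaller classes (top 10% by AL9 and 5% by FL3 and BETL9) 2 of the 4 members tested were called between AL9-high and FL3-high cells. Over all genes, 3953 of 14740 were called there, and HB118 was at 1.07. OCL5A was not tested in either setting, since it did not pass the filter on low counts. Without the replicate block, 4, 4 and 2 members were called between AL9-high and BETL9-high, AL9-high and FL3-high, and FL3-high and BETL9-high cells, the counts of the fit with it, and 4020, 4319 and 4764 genes in all. Leaving out 1 library of 7 DAP gave 4 to 5 members called between AL9-high and FL3-high cells, 4 between AL9-high and BETL9-high cells and 2 between FL3-high and BETL9-high cells, with 4116 to 4543, 3930 to 4214 and 4453 to 4904 genes in all. OCL5A between FL3-high and BETL9-high cells was -0.84 to 0.25 and HB91 -1.33 to 0.73, both reversed without replicate 2, and HB45 between AL9-high and FL3-high cells was -1.05 to -0.82. In the comparison of ages over all kept cells, 1 member was past the fold and higher without the 5% deepest cells, HB118 at a ratio of 1.79. Over all genes, 1400 of 18216 were past it and higher in that setting. OCL5A, the 1 member past the fold and lower, was no longer past it, leaving 0, with all deposited barcodes, with a fold of 2 or with a minimum of 10 CPM. OCL1 had a ratio of 0.804 with TMM factors. In BETL9-high cells 1 member was higher with marker genes left out, an alternative chosen after seeing the data, and 2 to 3 with 1 library left out. Over all genes of that class, 3288 of 17293 were higher with marker genes left out and 3891 to 4689 with 1 library left out. In thinned cells, OCL1 and HB45 in 7 DAP replicate 3 gave a ratio of shares of 0.470, from 2 shared cells. The cause of these shifts was not tested. Depth limits OCL5A, which had 0 to 2 UMIs in FL3-high and in BETL9-high cells of a 7 DAP library. At that age HB118 in FL3-high cells rests on 1 to 4 UMIs per library. HB91 rests on 3 to 20 UMIs in FL3-high and in BETL9-high cells.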
